A study of Mus musculus with 6 samples.

Results

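The 9 genes described here are Foxo1, Foxo3 and Foxo4, Txnip, and the BTG/TOB genes Btg1, Btg2, Btg3, Tob1 and Tob2, all known for roles in holding cells back from division. They were taken by symbol from a deposited table of 53677 genes, and all 9 were found. Transcripts were measured as RPKM, reads scaled to gene length and to the counted reads of the library. The cells were short-term hematopoietic stem cells (ST-HSC) sorted from C57BL/6J bone marrow by the absence of lineage markers and CD150 and the presence of Kit and CD48, a gate that does not name Sca-1. There were 3 libraries from mice labelled dnTCF4+/+ and 3 from wild-type (WT) mice labelled dnTCF4-/-, 1 mouse per library by the series description. dnTCF4 is a dominant-negative form of TCF4, made to block transcription by β-catenin with TCF/LEF factors. The labels do not give the promoter that drives it, or the age or sex of the mice. Whether these quiescence genes differ between the genotypes is the comparison made below.

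FOXO proteins are transcription factors that growth factor signalling through PI3K and AKT sends out of the nucleus. When that signal is low they stay in the nucleus and switch on genes for cell cycle arrest, defence against oxidants and cell death, and in mouse marrow their loss is known to exhaust stem cells. TXNIP, an arrestin-fold protein that binds thioredoxin and lowers glucose uptake, is a known FOXO target and is known from mouse knockouts to help keep stem cells in the niche. BTG and TOB proteins are small antiproliferative factors that bring the CCR4-NOT deadenylase to messenger RNAs.

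Libraries held 57400000 to 110900000 counted reads in dnTCF4 and 61800000 to 67700000 in WT. Kit (35.5 to 97.1 RPKM in dnTCF4, 47.3 to 83.7 in WT) and Cd48 (999.8 to 1415 and 813.4 to 994.3) were well read. Slamf1, the gene of CD150, was at 0.744 to 1.18 RPKM in dnTCF4 and 0.792 to 1.15 in WT, as the gate requires. Tcf7l2, which encodes TCF4, was at 2.15, 1.99 and 2.80 RPKM in dnTCF4 and 1.56, 1.30 and 1.69 in WT (limma adjusted p = 0.52), though the labels do not say which part of the gene the transgene holds. Immunoglobulin transcripts took 3.27% to 6.33% of summed RPKM in dnTCF4 against 25.5% to 44.1% in WT. Of the counted reads, by which RPKM is scaled, they took 0.732% to 1.55% in dnTCF4 against 7.22% to 14.8% in WT. Because RPKM is a share of the library, other genes read slightly higher where that share is small, so the difference of each of the 9 genes and the count of each gene list is also given after median ratio scaling, which sets the typical gene equal in all libraries. dnTCF4 replicate 3 had the lowest limma library weight, 0.273 against 0.647 to 2.25 for the others, so the differences of the 9 genes are also given without it. Y-linked reads were found in replicate 1 of both genotypes and not in replicates 2 and 3.

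Promoter sequence from RefSeq (GRCm38.p6) was held for 8 of the 9 genes. It is printed for Txnip and Btg1, whose windows hold the FOXO core, and for Btg2, the next most abundant gene after Txnip. Each line gives the 250 bases before the RefSeq start, 5′ to 3′ in the direction of the gene.
Txnip (chr3:96557707-96557956, plus strand): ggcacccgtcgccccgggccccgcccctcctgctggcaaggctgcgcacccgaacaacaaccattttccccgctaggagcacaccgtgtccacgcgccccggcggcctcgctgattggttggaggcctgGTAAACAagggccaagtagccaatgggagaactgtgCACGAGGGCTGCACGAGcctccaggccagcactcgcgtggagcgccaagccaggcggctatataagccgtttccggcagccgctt
Btg1 (chr10:96616751-96617000, plus strand): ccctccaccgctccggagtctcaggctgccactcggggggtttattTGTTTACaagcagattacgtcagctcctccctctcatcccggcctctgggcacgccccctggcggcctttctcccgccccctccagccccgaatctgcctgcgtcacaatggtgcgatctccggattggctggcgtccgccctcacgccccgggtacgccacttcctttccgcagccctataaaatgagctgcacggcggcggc
Btg2 (chr1:134079156-134079405, minus strand): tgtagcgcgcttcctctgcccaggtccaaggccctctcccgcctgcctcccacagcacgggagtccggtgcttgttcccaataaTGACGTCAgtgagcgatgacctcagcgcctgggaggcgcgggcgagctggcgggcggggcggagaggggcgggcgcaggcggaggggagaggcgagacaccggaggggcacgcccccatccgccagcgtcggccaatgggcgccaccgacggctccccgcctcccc
Capitals mark the FOXO core GTAAACA, which in Btg1 lies on the other strand and so is printed as its reverse complement, a pair of CACGAG hexamers 5 bases apart in Txnip, and the cAMP response element TGACGTCA in Btg2. The FOXO core lay 121 to 115 bases before the start of Txnip and 204 to 198 bases before that of Btg1. Searched on both strands, it was in 1040 of 32851 windows of this length (3.17%), and among the 8 genes in those of Txnip and Btg1. The hexamer pair, spelled after the carbohydrate response element known at Txnip, was in 1 window, that of Txnip. TGACGTCA was in 1.55% of windows, and of the 8 genes in that of Btg2. The TCF/LEF core CTTTGAT was in 3.21% of windows and in 0 of those of the 8 genes. None of the matches overlapped another in the 3 printed windows. These matches describe the letters of the windows and no binding was measured.

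All 3 FOXO genes had a higher mean in dnTCF4 than in WT, at low to moderate levels. Foxo3, the FOXO factor best known in blood stem cells (GRCm38 chromosome 10, 42181841 to 42276755), was at 5.65, 4.12 and 6.81 RPKM in dnTCF4 replicates 1, 2 and 3 and 4.01, 3.96 and 4.99 in WT replicates 1, 2 and 3. The groups overlapped, since dnTCF4 replicate 2 lay below WT replicate 3. Its log2 difference, dnTCF4 minus WT on log2(RPKM + 1), was 0.28 (SE 0.21, limma adjusted p = 0.70), and 0.10 after median ratio scaling. The estimate of Foxo3 moved with single libraries, to 0.14 without dnTCF4 replicate 3 and 0.44 without dnTCF4 replicate 2.

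Foxo1, which in lymphoid cells switches on the Il7r and Rag genes (chromosome 3, 52268336 to 52353221), was at 1.27, 0.921 and 1.82 RPKM in dnTCF4 and 0.656, 0.738 and 1.06 in WT. These came from 693, 885 and 904 reads in dnTCF4 and 361, 395 and 623 in WT. The values overlapped at dnTCF4 replicate 2 and WT replicate 3, with a log2 difference of 0.35 (SE 0.19, limma adjusted p = 0.61), 0.24 after median ratio scaling and 0.21 without dnTCF4 replicate 3. Genes were tested from a mean of 1 RPKM up, and Foxo1 passed that filter through its dnTCF4 values, its WT mean being 0.819.

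Foxo4, the X-linked FOXO gene (chromosome X, 101254528 to 101260873), was the least abundant of the 9. It was at 0.623, 0.631 and 1.00 RPKM in dnTCF4, from 137, 244 and 200 reads, and at 0.384, 0.321 and 0.424 RPKM in WT, from 85, 69 and 100 reads. The dnTCF4 values were all higher than the WT values (exact permutation test, two-sided, p = 0.1, the lowest that 3 against 3 libraries can give). Their means, 0.752 ± 0.215 and 0.376 ± 0.0521 RPKM (SD, n = 3 each), differed 2.00-fold. With a mean under 1 RPKM it was not tested with the other genes. In a limma fit without that filter its log2 difference was 0.34 (SE 0.13, adjusted p = 0.63). Foxo4 was the 1 member whose groups also stayed apart after median ratio scaling, at 0.589 to 0.862 in dnTCF4 and 0.344 to 0.455 in WT. The log2 difference of Foxo4 was then 0.26, and without dnTCF4 replicate 3 it was 0.24. Between replicates 2 and 3 alone, where no Y-linked reads were found, its log2 difference was 0.40.

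Txnip (chromosome 3, 96557957 to 96561883), whose promoter carries the FOXO core shown above, was the most abundant member in both genotypes. It was at 137.1, 218.3 and 152.5 RPKM in dnTCF4 and 119.4, 90.1 and 102.4 in WT, so the groups did not overlap. dnTCF4 replicate 2 was the highest library and also the deepest, with 75597 reads on the gene. The means were 169.3 ± 43.1 and 103.9 ± 14.7 RPKM (SD, n = 3 each), a ratio of 1.63, and the log2 difference was 0.68 (SE 0.23, 95% interval 0.15 to 1.21, limma adjusted p = 0.41). After median ratio scaling the difference was 0.46 and the groups overlapped, with WT replicate 1 (141.5) above dnTCF4 replicates 1 and 3 (129.6 and 131.5). Without dnTCF4 replicate 3 the difference of Txnip was 0.74. An antisense gene that spans Txnip, Gm15441, was listed at 2.28 RPKM in dnTCF4 and 1.48 in WT on average, and reads of any stretch shared with it cannot be assigned to a strand with this chemistry.

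Btg1 and Btg2 are the paired short members of the BTG family, and Btg2 is also an immediate early and p53-induced gene. Btg1 (chromosome 10, 96617006 to 96622809) was at 9.57, 8.64 and 7.46 RPKM in dnTCF4 and 6.72, 5.16 and 4.33 in WT. The groups did not overlap, and the log2 difference was 0.59 (SE 0.20, 95% interval 0.11 to 1.07, limma adjusted p = 0.42). After median ratio scaling the difference of Btg1 was 0.40 and the groups overlapped, and without dnTCF4 replicate 3 it was 0.67. The annotated Btg1 copies Btg1-ps1 and Btg1-ps2 were listed at 0 in all 6 libraries. Btg2 (chromosome 1, 134075170 to 134079120) was at 94.0, 115.8 and 58.5 RPKM in dnTCF4 and 70.4, 47.0 and 48.4 in WT. Here dnTCF4 replicate 3 lay below WT replicate 1, so the groups overlapped, and the log2 difference was 0.65 (SE 0.29, limma adjusted p = 0.55). Without dnTCF4 replicate 3 the difference of Btg2 was 0.93, and after median ratio scaling of all libraries it was 0.44.

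Btg3, a longer-tailed BTG protein known from human cells to bind E2F1 (chromosome 16, 78332637 to 78377192), was at 1.20, 0.708 and 1.45 RPKM in dnTCF4 and 0.613, 0.720 and 0.903 in WT. dnTCF4 replicate 2 lay within the WT range. With a mean of 0.933 RPKM it was not tested with the other genes. The fit without a filter gave a log2 difference of 0.27 (SE 0.19, limma adjusted p = 0.78), which was 0.16 after median ratio scaling, 0.16 without dnTCF4 replicate 3 and 0.42 without dnTCF4 replicate 2. The gene body overlaps Cxadr on the opposite strand, itself listed at 0.114 RPKM on average in dnTCF4 and in WT.

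Tob1 and Tob2 carry a longer tail that binds the poly(A)-binding protein, and Tob1 is known to hold T cells unresponsive. Tob1 (chromosome 11, 94211454 to 94215495) was at 5.11, 3.45 and 4.65 RPKM in dnTCF4 and 3.08, 1.95 and 2.40 in WT. All dnTCF4 values lay above all WT values, from 610 to 875 reads in dnTCF4 and 276 to 448 in WT. The means, 4.40 ± 0.859 and 2.48 ± 0.569 RPKM (SD, n = 3 each), stood in a ratio of 1.78. Its log2 difference of 0.63 (SE 0.20, 95% interval 0.16 to 1.11, limma adjusted p = 0.38) had the smallest p of the tested members. After median ratio scaling the difference of Tob1 was 0.46 and the groups overlapped, and without dnTCF4 replicate 3 it was 0.60. Tob2 (chromosome 15, 81848272 to 81858796) was at 8.82, 8.17 and 7.09 RPKM in dnTCF4 and 5.33, 7.07 and 9.32 in WT. The WT values enclosed those of dnTCF4, the log2 difference was 0.16 (SE 0.22, limma adjusted p = 0.78), and its sign turned after median ratio scaling (-0.033) and without WT replicate 1 (-0.020), while it was 0.33 without WT replicate 3 and 0.23 without dnTCF4 replicate 3.

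**Figure D1:**
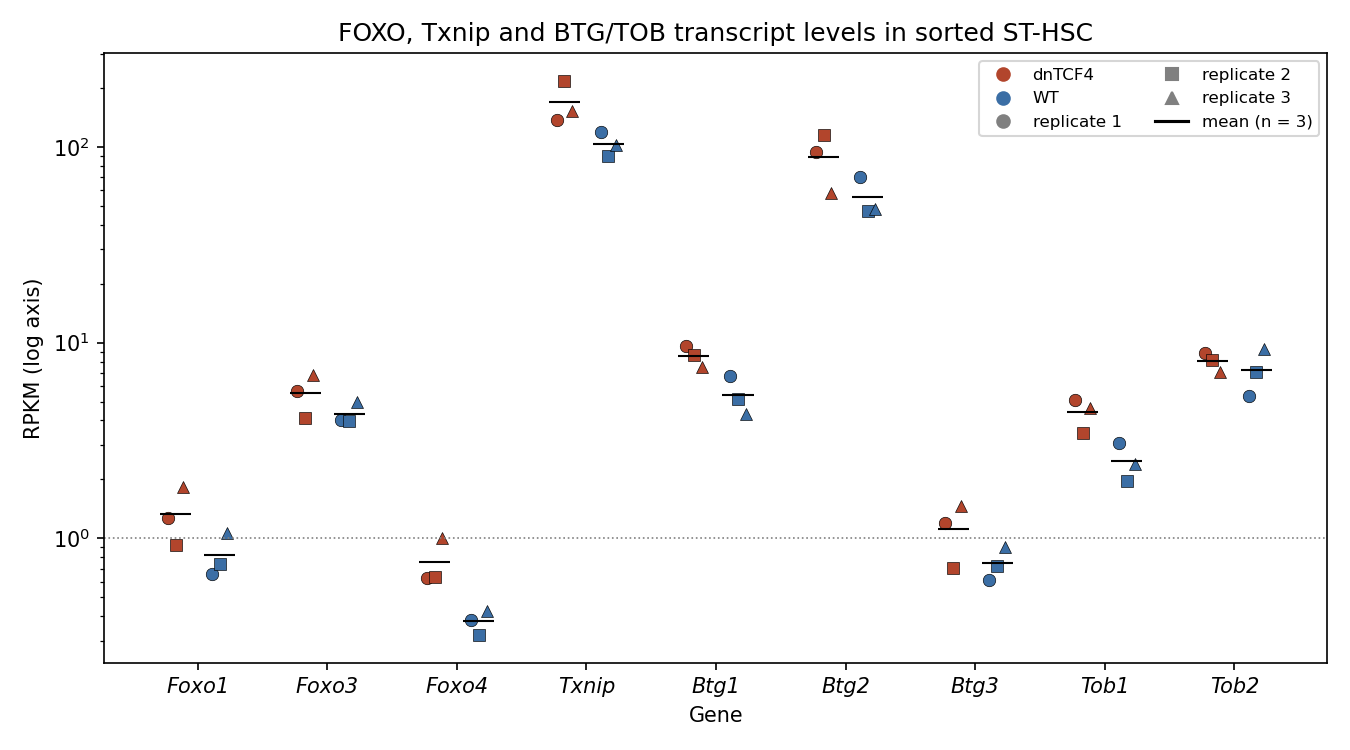
RPKM on a log axis for the 9 genes, with dnTCF4 libraries (red) left of WT libraries (blue), 1 symbol per replicate and a bar at the mean of 3. The groups do not overlap for Foxo4, Txnip, Btg1 and Tob1, and the WT values of Tob2 enclose those of dnTCF4.

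Since RPKM is per length, the genes can also be ranked within a genotype. In dnTCF4 the order of mean RPKM was Txnip, Btg2, Btg1, Tob2, Foxo3, Tob1, Foxo1, Btg3 and Foxo4. Of these neighbours, Btg1 and Tob2, Foxo3 and Tob1, Foxo1 and Btg3, and Btg3 and Foxo4 had overlapping values. In WT the order differed by 1 exchange, with Tob2 at 7.24 ± 2.00 RPKM above Btg1 at 5.40 ± 1.22 (SD, n = 3), a pair whose values overlapped. Btg1 and Foxo3, and Foxo1 and Btg3, also overlapped there. Txnip lay above 94.7% of the 11326 tested genes by mean RPKM and Btg2 above 90.9%. Foxo3, Btg1, Tob1 and Tob2 lay in the middle of the range, above 35.8% to 56.7%, and Foxo1 near its floor, above 2.02%.

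All 9 genes had a higher mean in dnTCF4, and 0 of the 7 tested were called. Of all 11326 genes tested, 34 (0.3%) passed the limma test at an adjusted p under 0.05, and 5 (0.0441%) of them were higher in dnTCF4. That count of higher genes was 0 after median ratio scaling (limma, with 352 at an unadjusted p under 0.05), 32 with library weights, 1 without dnTCF4 replicate 1 and 0 without any of the 5 other libraries. The groups did not overlap for 4 of the 9, and for 3 of the 7 tested (Txnip, Btg1 and Tob1), where 15.4% of all tested genes had all 3 dnTCF4 values above all 3 WT values. The same 3 had an unadjusted limma p under 0.05 with a higher value, as had 7.52% of all tested genes. The shared direction is read against the 68.5% of tested genes whose log2 difference was above 0 in the deposited values. Foxo1, 1 of the 7, passed the filter through its dnTCF4 values (WT mean 0.819 RPKM), so the filter favoured its direction. The median log2 difference of the 7 was 0.59, against 0.14 for all tested genes. After median ratio scaling it was 0.40 against -0.038, with 6 of 7 above 0 where 43.6% of all genes were. In that scaling 0 of the 7 had an unadjusted limma p under 0.05. The groups then overlapped for each of the 7, where 5.52% of all tested genes had all 3 dnTCF4 values above all 3 WT values. They stayed apart for 1 of the 9, Foxo4, which was not tested and so is not part of that share.

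**Figure D2:**
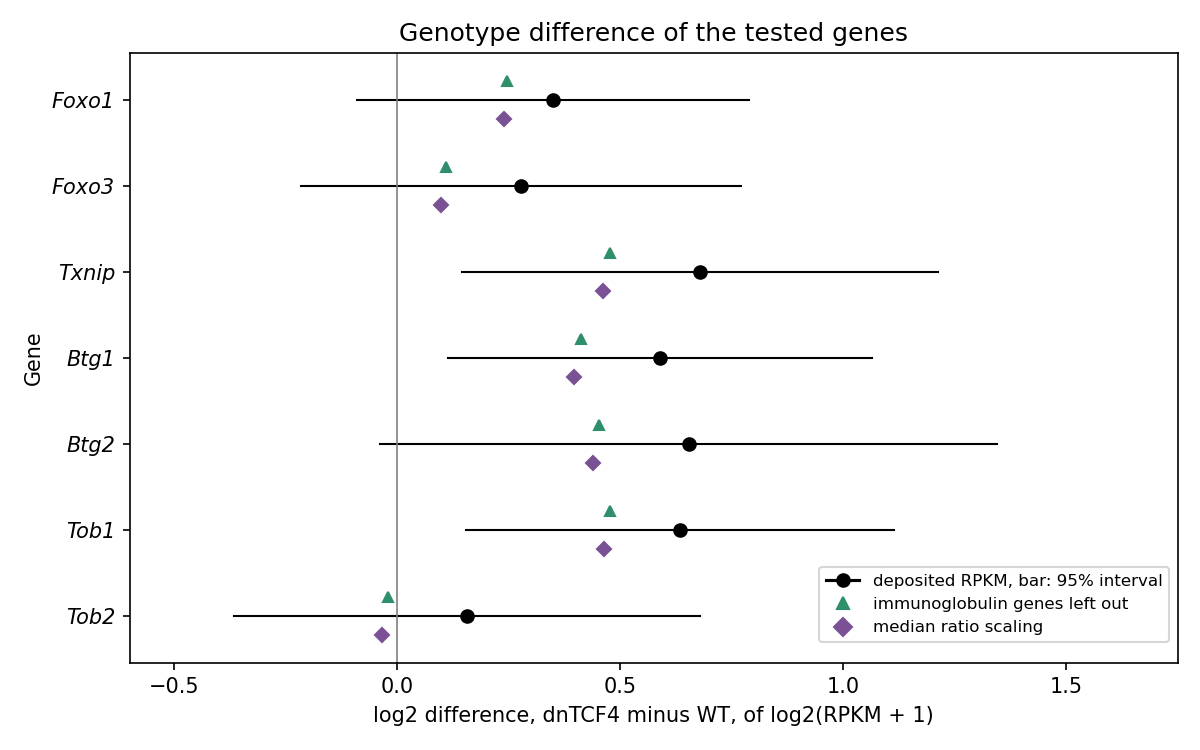
Log2 difference, dnTCF4 minus WT, of log2(RPKM + 1) for the 7 tested genes. Black points are the deposited values with their 95% limma interval, green triangles the values with immunoglobulin genes left out and purple diamonds those after median ratio scaling. The intervals of Txnip, Btg1 and Tob1 lie above 0, every other estimate lies to the left of the deposited one, and that of Tob2 changes sign.

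Shares within a family do not depend on how a library is scaled. Foxo3 made up 74.9%, 72.6% and 70.7% of the summed RPKM of the 3 FOXO genes in dnTCF4 replicates 1, 2 and 3, and 79.4%, 78.9% and 77.1% in WT. All dnTCF4 shares of Foxo3 lay below all WT shares. Foxo4 made up 8.27%, 11.1% and 10.4% in dnTCF4 and 7.61%, 6.38% and 6.54% in WT, with no overlap in the other direction. Foxo1 made up 17.3% ± 1.39 in dnTCF4 and 14.7% ± 1.69 in WT (SD, n = 3 each), with dnTCF4 replicate 2 (16.2%) below WT replicate 3 (16.4%). The difference in share was -5.70 percentage points for Foxo3 and 3.08 for Foxo4. When 1 library was left out these ran from -6.78 to -4.69 and from 2.48 to 3.92. Since neither set of shares overlapped, leaving out 1 library could not turn the direction. Their summed RPKM was 7.61 ± 1.98 in dnTCF4 and 5.52 ± 0.835 in WT (SD, n = 3 each). The shares of a family are parts of a whole, so the lower Foxo3 share and the higher Foxo4 share are not separate results. These shares were described and not tested.

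Among the 5 BTG/TOB genes, Btg2 made up 79.3% ± 5.39 of the summed RPKM in dnTCF4 and 77.2% ± 3.99 in WT. Tob2 made up 7.46% ± 1.49 in dnTCF4 and 10.6% ± 4.09 in WT (SD, n = 3 each). The shares of all 5 overlapped between the genotypes. In WT the share of Tob2 ran from 6.18% in replicate 1 to 14.3% in replicate 3, a wider range than between the group means.

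**Figure D3:**
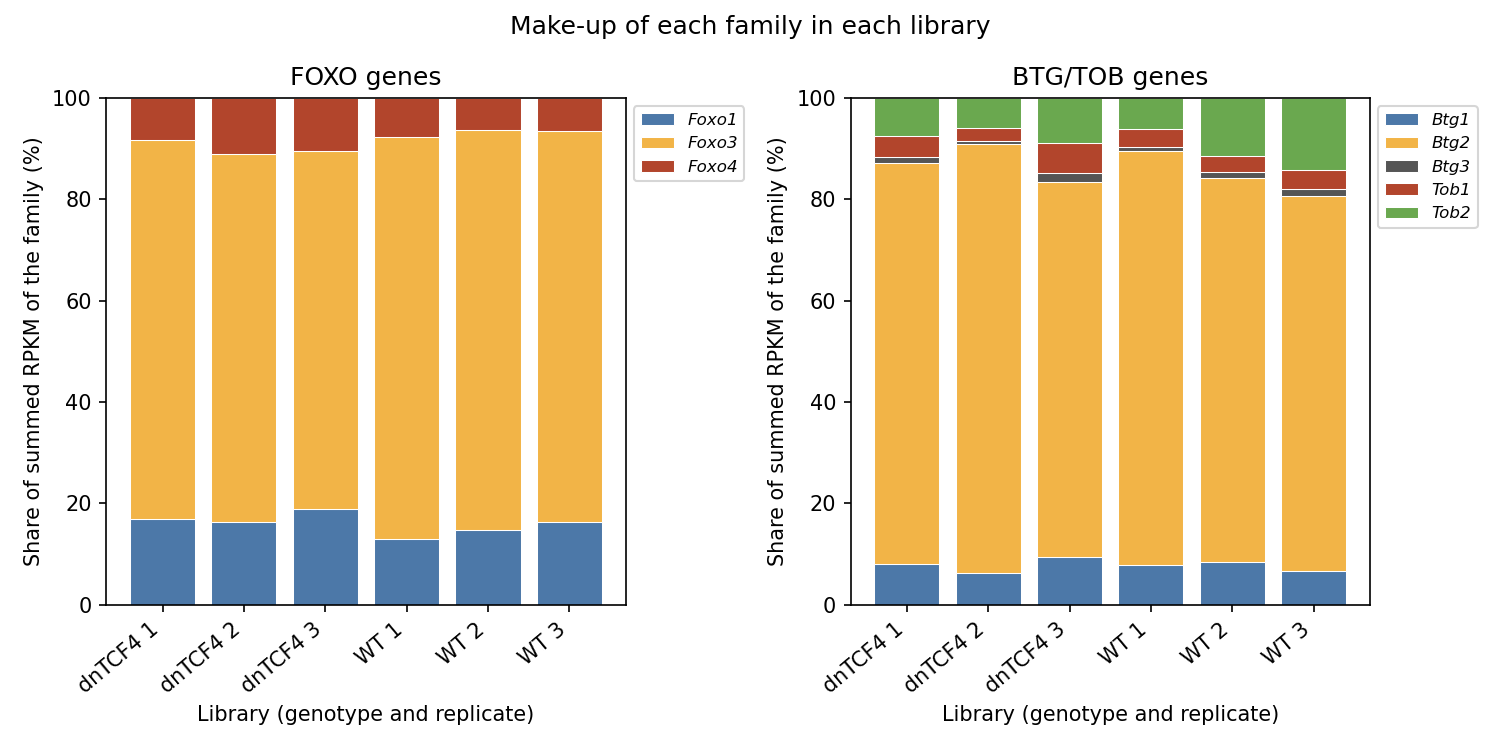
Share of each gene, in percent, in the summed RPKM of the FOXO genes (left) and the BTG/TOB genes (right), 1 bar per library with the 3 dnTCF4 libraries left of the 3 WT libraries. The Foxo3 part is 70.7% to 74.9% in dnTCF4 and 77.1% to 79.4% in WT, while Btg2 fills 73.9% to 84.7% and 74.1% to 81.7% of the BTG/TOB bars.

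The members did not follow one pattern across libraries. Foxo1, Foxo3, Foxo4 and Btg3 were highest in dnTCF4 replicate 3 and, among WT libraries, in WT replicate 3. Txnip and Btg2 were highest in dnTCF4 replicate 2, Btg1 and Tob1 in dnTCF4 replicate 1, and these 4 were highest among WT libraries in WT replicate 1. Btg2 was lowest among dnTCF4 libraries in replicate 3, where the FOXO genes peaked. Tob2 was the 1 member with its highest value in a WT library, replicate 3. Between its lowest and highest library a member varied from 1.72-fold (Foxo3) to 3.12-fold (Foxo4). In the numbered pairs of libraries, 7 members were higher in dnTCF4 in 3 of 3 pairs, as were 37.3% of all tested genes, and Btg3 and Tob2 in 2 of 3.

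**Figure D4:**
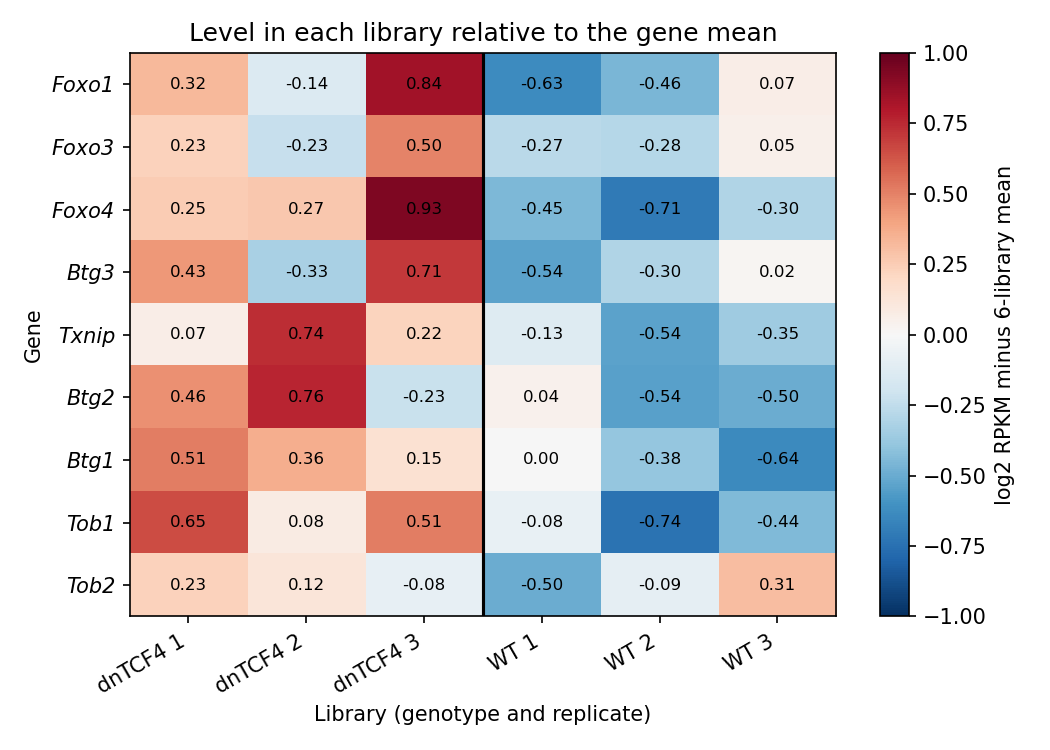
Log2 RPKM of each gene in each library minus the gene's mean over the 6 libraries, with dnTCF4 libraries left of the black line and WT libraries right of it, red for above and blue for below. Foxo1, Foxo3, Foxo4 and Btg3 are highest in dnTCF4 replicate 3 (0.50 to 0.93), and Txnip and Btg2 in dnTCF4 replicate 2 (0.74 and 0.76).

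Genes known to be switched on by FOXO factors were read beside the factors themselves. Of 30 such genes in a list, 29 were in the table and 21 were tested, of which 0 were called by limma (4 at an unadjusted p under 0.05) and 17 had higher values in dnTCF4. Their median log2 difference was 0.30, against 0.14 for all tested genes, and after median ratio scaling 0.11 against -0.038, with 14 of 21 higher. Of all tested genes 68.5% were higher, 43.6% after median ratio scaling, and 7.52% were higher at an unadjusted limma p under 0.05. Gadd45a, among the 4 at an unadjusted p under 0.05, passed the filter through its dnTCF4 values (mean 1.36 RPKM, 0.837 in WT). Tnfsf10, the death ligand TRAIL, was at 10.1, 12.8 and 12.4 RPKM in dnTCF4 and 7.55, 5.35 and 7.34 in WT (log2 difference 0.73, limma adjusted p = 0.28). Pik3ip1, an inhibitor of PI3K, was at 7.55, 13.2 and 9.08 RPKM in dnTCF4 and 5.87, 6.04 and 4.92 in WT (0.70, limma adjusted p = 0.39). Cdkn1b, the CDK inhibitor p27, was at 3.55, 4.58 and 4.08 RPKM in dnTCF4 and 1.90, 2.80 and 2.92 in WT (0.53, limma adjusted p = 0.45). The groups of these 3 genes, named for the smallest p in the list, did not overlap. All dnTCF4 values lay above all WT values for 8 of the 21 tested targets, against 15.4% of all tested genes. The 4 tested targets with lower values were Cat, Bnip3, S1pr1 and Trp53inp1. Cat, which encodes catalase, was at 112.4, 119.1 and 32.1 RPKM in dnTCF4 and 70.0, 129.7 and 84.3 in WT. Bnip3, a mitophagy gene, and S1pr1, a receptor for sphingosine 1-phosphate, were likewise lowest in dnTCF4 replicate 3, at 6.04 and 3.13 RPKM. Without that library the log2 differences of Cat, Bnip3 and S1pr1 were above 0 (0.33, 0.15 and 0.038), against -0.27, -0.39 and -0.24 with it. The count of targets with higher values was then 20 of 21. Over the fits that left out 1 library it ran from 15 to 20, so this was the highest. The share of all tested genes that were higher in those fits is not given, so these counts cannot be set against it. Trp53inp1 averaged 5.15 ± 0.660 RPKM in dnTCF4 and 5.43 ± 1.25 in WT (SD, n = 3 each).

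Of 31 genes that act on FOXO proteins, such as PI3K and AKT subunits and adaptors, 30 were tested. None was called (limma, with 1 at an unadjusted p under 0.05), and 20 had higher values in dnTCF4, or 13 of 30 after median ratio scaling. Of all tested genes 68.5% were higher, 43.6% after median ratio scaling, and 7.52% were higher at an unadjusted limma p under 0.05. Pik3r1, a regulatory subunit of PI3K, was at 7.76, 6.64 and 10.6 RPKM in dnTCF4 and 5.38, 5.28 and 6.12 in WT (log2 difference 0.48, limma adjusted p = 0.52). Akt1, which encodes an AKT kinase, averaged 7.64 ± 2.96 RPKM in dnTCF4 and 9.49 ± 2.79 in WT.

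For the BTG/TOB partners, 17 of 18 genes of the CCR4-NOT deadenylase and its associates were tested, 0 were called by limma (1 at an unadjusted p under 0.05) and 15 had higher values in dnTCF4, or 11 of 17 after median ratio scaling. Cnot6l, a catalytic deadenylase subunit, was at 16.4, 19.4 and 27.1 RPKM in dnTCF4 and 12.5, 11.1 and 13.7 in WT (log2 difference 0.68, limma adjusted p = 0.39). Cnot7 and Cnot8, the subunits that BTG and TOB proteins bind, averaged 4.94 ± 1.16 and 118.4 ± 18.2 RPKM in dnTCF4, against 4.40 ± 1.25 and 118.8 ± 6.11 in WT. Of the 13 genes around TXNIP, 9 were tested, 0 were called by limma (0 at an unadjusted p under 0.05), and 6 had higher values in dnTCF4, or 4 of 8 after median ratio scaling. Txnrd2, 1 of the 9, passed the filter through its dnTCF4 values (mean 1.26 RPKM, 0.761 in WT). For both lists, the shares of all tested genes were 68.5% higher, 43.6% after median ratio scaling, and 7.52% higher at an unadjusted limma p under 0.05. Arrdc3, a related arrestin gene, was at 11.0, 18.8 and 16.8 RPKM in dnTCF4 and 11.7, 10.1 and 10.9 in WT (0.44, limma adjusted p = 0.60). Txn1, the thioredoxin that TXNIP binds, averaged 776.7 ± 120.6 RPKM in dnTCF4 and 643.7 ± 60.2 in WT.

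Cell cycle genes were listed as well, since the 9 genes are named for quiescence. Of 29 proliferation genes 28 were tested, 0 were called by limma (1 at an unadjusted p under 0.05), and 15 were higher and 13 lower in dnTCF4, with a median log2 difference of 0.065 against 0.14 for all genes, and 10 of 28 higher after median ratio scaling. E2f2, an S-phase transcription factor, was at 1.85, 1.41 and 1.97 RPKM in dnTCF4 and 0.929, 0.912 and 1.40 in WT. Of 20 genes of cell cycle arrest and stem cell dormancy 16 were tested, 0 were called by limma (2 at an unadjusted p under 0.05) and 13 had higher values, or 9 of 16 after median ratio scaling. For both lists, the shares of all tested genes were 68.5% higher, 43.6% after median ratio scaling, and 7.52% higher at an unadjusted limma p under 0.05. Cdkn2c, the CDK inhibitor p18, was at 7.59, 5.59 and 9.71 RPKM in dnTCF4 and 3.77, 3.13 and 3.29 in WT (log2 difference 0.95, limma adjusted p = 0.19). Cdkn1a, the CDK inhibitor p21, averaged 2.96 ± 0.688 and 2.96 ± 0.399 RPKM in dnTCF4 and WT (SD, n = 3 each).

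Immediate early genes were read because Btg2 is one of them. Of 24 listed, 14 were tested, 0 were called by limma (6 at an unadjusted p under 0.05), and 14 had higher values in dnTCF4, or 13 of 14 after median ratio scaling. Their median log2 difference was 0.61, against 0.14 for all tested genes. Of all tested genes 68.5% were higher, 43.6% after median ratio scaling, and 7.52% were higher at an unadjusted limma p under 0.05. Jun, a subunit of AP-1, was at 9.80, 9.69 and 7.12 RPKM in dnTCF4 and 4.68, 3.54 and 3.76 in WT (log2 difference 0.98, limma adjusted p = 0.14). With library weights Jun was called (1.14, limma adjusted p = 0.027), the 1 listed gene other than a cell type marker that was called in any of the 18 alternatives. Of 16 targets of p53, which also switches on Btg2, 8 were tested, 0 were called by limma (1 at an unadjusted p under 0.05), and 4 were higher and 4 lower, or 3 of 8 higher after median ratio scaling. Without dnTCF4 replicate 3, 6 of the 8 were higher, the top of a range of 4 to 6 over the fits that left out 1 library. No share of all tested genes is given for those fits, so these counts have nothing to be set against. Fas, a death receptor, was at 4.90, 8.06 and 9.72 RPKM in dnTCF4 and 2.56, 1.88 and 2.13 in WT (1.39, limma adjusted p = 0.11), while Aen, a nuclease, averaged 6.72 ± 3.13 and 10.5 ± 4.23 RPKM.

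Markers of other blood cells also differed in level between the genotypes, with 0 called by limma and none at 0 in all 6 libraries. Alternatives called 5 markers: Irf4 after median ratio scaling, Irf4 and Jchain after quantile normalization, Mzb1 with the replicate block, and Irf4, Jchain, Rhag and Pf4 with library weights. Of these the plasma and B cell genes Irf4, Jchain and Mzb1 were lower in dnTCF4, and the erythroblast gene Rhag and the megakaryocyte gene Pf4 higher. In bulk RNA, fewer cells of a type and less RNA per cell cannot be told apart. The summed RPKM of 14 plasma and B cell markers was 403.9 to 810.4 in dnTCF4 and 2732 to 8011 in WT. All dnTCF4 values lay below all WT values for 6 of 11 tested, as for 2.26% of all tested genes. At an unadjusted limma p under 0.05, 6 of 11 were lower, as were 238 of 11326 tested genes. For 11 neutrophil markers it was 3078, 3730 and 7611 in dnTCF4 and 621.5, 755.0 and 3128 in WT. These sums overlapped, since dnTCF4 replicate 1 lay below WT replicate 3. Of the 11 markers 10 had a higher mean, 8 of them at an unadjusted limma p under 0.05, as had 7.52% of all tested genes. All dnTCF4 values lay above all WT values for 1 of 11. dnTCF4 replicate 3, where the FOXO genes and Btg3 were highest, had the largest neutrophil, erythroblast, megakaryocyte and monocyte sums. Its sums of the other marker lists were not the largest. For 9 erythroblast markers the sum was 56.4 to 102.1 in dnTCF4 and 19.0 to 34.3 in WT, and for 7 megakaryocyte markers 132.2 to 166.3 and 53.4 to 75.8. All dnTCF4 values lay above all WT values for 3 of 5 tested erythroblast and 2 of 5 tested megakaryocyte markers. That held for 15.4% of all tested genes. After median ratio scaling 5 of 5 and 3 of 5 were higher, as were 43.6% of all tested genes. Single genes made up most of some sums. Pf4 was at 112.5 to 153.0 RPKM in dnTCF4 and 42.4 to 62.3 in WT, and Jchain at 284.1 to 614.7 and 2482 to 7568. Nkg7, a T and NK cell marker, was at 742.9 to 1163 and 989.5 to 1221. The sums of T and NK cell (749.1 to 1170 and 994.5 to 1232), monocyte (406.4 to 544.5 and 383.1 to 494.1), and mast cell and basophil markers (296.4 to 489.4 and 348.3 to 579.1) overlapped between dnTCF4 and WT. Of 8 tested monocyte markers 5 were higher and 3 lower, with 2 higher at an unadjusted limma p under 0.05 (7.52% of all tested genes). All dnTCF4 values lay above all WT values for 4 of the 8, against 15.4% of all tested genes. Among the 5 mast cell and basophil markers, Mcpt8, Prss34 and Fcer1a were lower in all dnTCF4 libraries and at an unadjusted limma p under 0.05. Of all tested genes 2.26% had all dnTCF4 values below all WT values, and 238 of 11326 were lower at that p. Cpa3, with the highest level, averaged 245.4 ± 74.7 RPKM in dnTCF4 and 161.4 ± 33.4 in WT (SD, n = 3 each). The sums of 8 marrow niche markers overlapped narrowly, at 36.6 to 43.5 and 28.5 to 37.0. The part of such cells in the values of the 9 genes was not tested.

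The tested gene most like each member, by Pearson's r of log2(RPKM + 1) over the 6 libraries, was Zfp248 for Txnip (r = 0.996), Usp18 for Btg1 (0.997) and Etohd2 for Btg2 (0.991). For Tob1 it was A630033H20Rik (0.996), for Tob2 Mtmr9 (0.985), for Foxo1 A530064D06Rik (0.998) and for Foxo3 Zfp553 (0.997). These values are descriptions over 6 libraries, 3 of each genotype, of unequal depth. As many as 621 genes followed Foxo1 and 362 followed Foxo3 at an r over 0.95, against 15 to 83 for the other 5.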

How the data were processed

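The values deposited by the authors are RPKM, 1 column for each of 6 libraries, matched to samples through the column names quoted in the labels. The submitters' processing notes name the builds mm10 and GRCm38 and the tools DESeq2, edgeR, featureCounts and STAR, without a role or version. RPKM times exon length (GENCODE M21) fell within 0.02 of whole reads for 96.2% to 96.4% of genes checked, which gave the read totals. Btg3 and Tob2 were not whole with this length, so no reads are given for them. Genes averaging 1 RPKM or more over the 6 libraries entered the test on log2(RPKM + 1), a scale that understates changes of low genes, with limma 3.58.1 in R 4.3.3 (trend, two-sided, Benjamini-Hochberg over 11326 genes). Fits were checked on simulated data. Same-numbered libraries were taken as pairs in the blocked fits, though the sample titles give only the numbers 1, 2 and 3. Across genes, deviations from the group means correlated between same-numbered libraries at 0.17, 0.35 and 0.30. The main fit and the permutation test do not use pairs. Members, lists and tests were chosen with earlier results of these data known. Named genes are the members, up to 3 tested genes per list with the smallest p, 2 markers per cell type at most, and the gene most like each member. Trp53inp1, Cat, Bnip3, S1pr1, Gadd45a, Akt1, Cnot7, Cnot8, Txn1, Cdkn1a, Irf4, Mzb1, Mcpt8, Fcer1a, Gm15441 and Cxadr were added after their values were seen. Tables and figures were made with Python 3.11.15, pandas 2.3.3 and matplotlib 3.10.9. Alternatives are given in the closing section.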

Additional observations from a re-analysis of the deposited data

How the results depend on the processing

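In 18 alternatives, 0 of the member genes tested were called by limma. Those tested numbered 9 in the 3 fits without a filter, 4 with the filter at 5 RPKM, 6 by voom and 7 in the other 13. Of 142 values of single genes under these, 137 kept the direction of the deposited values. The other 5 were of Tob2, whose log2 difference was -0.033 after median ratio scaling, with or without the filter, -0.021 when immunoglobulin genes were dropped, -0.020 to 0.33 when 1 library was left out (-0.020 without WT replicate 1), and -0.082 with replicates 2 and 3 only. Many of the 137 could not have turned. A change of the filter alone, or the replicate block, returns the same log2 difference. Leaving out 1 library cannot turn the sign for Foxo4, Txnip, Btg1 and Tob1, whose groups did not overlap. With the replicate block, which changed no call of the 7 tested, 49 genes of the table were called, and the smallest adjusted p of the 7 was 0.14 (Tob1). The blocked fit without a filter gave 0.48 for Foxo4 and 0.60 for Btg3. The count of 34 called genes was 6 with no filter, 0 when immunoglobulin genes were dropped (limma, with 603 at an unadjusted p under 0.05), 14 by voom on recovered reads, 86 with library weights, 10 with replicates 2 and 3 only, and 7 to 30 when 1 library was left out. Genes acting on FOXO proteins with higher values in dnTCF4 numbered 13 of 30 under both scalings, against 20 in the deposited values. The cause of these changes was not tested. When 1 library was left out, the difference in BTG/TOB share ran from -0.39 to 1.17 percentage points for Btg1, -0.71 to 4.68 for Btg2, -0.32 to 0.34 for Btg3 and -0.054 to 1.62 for Tob1, so these have no stable direction. Depth limits Foxo4 and Btg3 most, the least abundant of the 9. Foxo1, Foxo3 and Tob1 had no value with the filter at 5 RPKM, and Tob2 none by voom. Foxo4 and Btg3 had values in the fits without a filter and, with no test, where libraries were left out. The blocked fit without a filter and median ratio scaling without a filter were chosen after seeing the data.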
